A study of Mus musculus with 1073 samples.

Results

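Expression of 10 genes of cellular iron handling was measured in single cells of the mouse yolk sac, the first site of blood formation in the embryo. The genes were taken from a fixed list of iron uptake, storage and export genes, and all 10 were present among the 15967 genes of the filtered tables. They were *Tfrc*, *Slc11a2* and *Steap3* (uptake), *Slc25a37* (entry into mitochondria), *Fth1* and *Ftl1* (storage), *Slc40a1* (export), *Hmox1* (haem breakdown), and *Aco1* and *Ireb2* (sensing).

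Cells take up iron bound to transferrin through the transferrin receptor, encoded by *Tfrc*. In the endosome the iron is released and reduced by the ferrireductase STEAP3, then passed to the cytosol by DMT1, the product of *Slc11a2*. Mitoferrin-1, encoded by *Slc25a37*, carries it into mitochondria, where haem is made. Surplus iron is stored in ferritin, a shell of heavy (*Fth1*) and light (*Ftl1*) chains, or exported by ferroportin (*Slc40a1*), the only known iron exporter. Haem oxygenase 1 (*Hmox1*) opens the haem ring and frees its iron, a step for which macrophages that clear red cells are known. Iron regulatory proteins 1 and 2 (*Aco1*, *Ireb2*) bind hairpins called iron responsive elements in mRNA when iron is scarce. Binding in a 5′ UTR blocks translation, and binding in a 3′ UTR protects the mRNA from decay. Erythroblasts, which fill with haemoglobin, have a high demand for iron.

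The yolk sac cells were sorted by flow cytometry into 13 populations, captured on the Fluidigm C1 system and sequenced as full length cDNA, 1 library per cell. Of 1073 captured cells, 926 passed the filter of the authors. Mesodermal cells came from embryos with GFP in 1 allele of *Flk1*, after trypsin: the *Flk1*-GFP+ gate gave 73 and 74 cells in 2 lanes on day E7.25, then 53 and 87 in 2 lanes on day E7.75. All later cells came from C57BL/6 embryos, after collagenase/dispase. The paper states that the *Flk1*-GFP line was kept on a C57BL/6 background as well. Haematopoietic progenitor cells (HPC) were TER119- CDH5+ CD41+ at E8.25 (73 cells) and E8.5 (89 cells), and TER119- CDH5- CD45+ with low CD41 at E9.5 (46 cells) and E10.5 (87 cells). Primitive erythroid cells (EryP) were TER119+ CD41- CDH5- at E8.5 (66 cells) and E10.5 (3 cells, also CD45-). Megakaryocytes (Mk) were TER119- CDH5- CD41+ at E8.5 (37 cells), and CD45- with high CD41 at E10.5 (73 cells). Macrophages (Mac) were TER119- CDH5- CD41- CD45+ at E10.5 (25 cells), and endothelium (Endo) TER119- CD41- CDH5+ at E8.5 (79 cells) and E10.5 (61 cells, also CD45-). TER119 and CD41 mark the erythroid and the progenitor or megakaryocyte surface, CDH5 endothelium, and CD45 blood cells.

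The labels tie no cell to an embryo or pool, so each population counted as 1 sample, no test was made between populations, and no ratio has a replicate check. Levels are means over cells of the deposited CPM, which are counts scaled by 1 size factor per cell. They are not shares of reads, as their sum per cell ranged from 699615 to 4176737. The amount of RNA per cell is not measured. A gene was found in a cell at 1 count or more, and shares have exact binomial 95% intervals (Clopper-Pearson), and summed counts have exact Poisson intervals. Both cover counting error only, and reads are not molecules. Total counts per cell ranged from 483830 to 5943204. Each population filled 1 lane, except that the E10.5 Mac and E10.5 EryP cells shared a lane and each *Flk1*-GFP+ population had 2 lanes. Population and lane thus cannot be told apart, and the labels name no capture. Stages E7.25, E8.25 and E8.5 were on 1 flow cell and the others on another. No 2 cells shared both a lane and an index pair, although 96 index pairs were used again across 14 lanes.

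The gates were checked against marker genes. The 7 erythroid markers (*Alas2*, *Klf1* and globin genes among them) were found on average in 98.7% of E8.5 EryP cells, and their summed CPM ranged from 41035 to 227749. The 7 macrophage markers (*Csf1r* and *C1qb* among them) were found on average in 98.9% of Mac cells. In the Mac cells the erythroid markers summed to a median of 36.6 CPM (3.09 to 128.7), and *Klf1* had no count, and the embryonic globin gene *Hba-x* had a mean of 9.77 CPM there against 116074 CPM in the 3 E10.5 EryP cells of the same lane. The E8.5 Mk cells carried erythroid as well as megakaryocyte markers. Their megakaryocyte markers were found on average in 71.9% of the cells. Each of the 5 had its highest mean among the E8.5 populations there, such as *Pf4* with 163.3 CPM against 41.55 CPM in HPC. Their erythroid markers summed to a median of 25586 CPM (541 to 142608) and were found on average in 95.75% of the cells, whereas their 5 megakaryocyte markers summed to a median of 183.6 CPM (9.94 to 1642.5, no marker absent), against 5331 CPM in E10.5 Mk. In E10.5 HPC the macrophage markers summed to between 0.34 and 10669 CPM (median 248). Calls that were lost, gained or turned without the cells concerned are given both ways.

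Iron responsive elements of the genes are shown because the products of *Aco1* and *Ireb2* bind to them. UTRs of GENCODE M21 transcripts (GRCm38) were searched on the transcript strand for a loop CAGTGN whose last base was not G, closed by 5 base pairs, with an unpaired C next to them on the 5′ side and at least 3 of 5 pairs below it, GT pairs allowed. The genes lie at chr16:32608920-32632794 (*Tfrc*), chr19:9980598-9985098 (*Fth1*), chr7:45457944-45459884 (*Ftl1*) and chr1:45908068-45926523 (*Slc40a1*). Of the others, *Slc25a37* lies at chr14:69241848-69285112, *Slc11a2* at chr15:100387898-100425072, *Steap3* at chr1:120190757-120272705, *Hmox1* at chr8:75093621-75100589, *Aco1* at chr4:40143081-40198338 and *Ireb2* at chr9:54863789-54912530. Each line runs 5′ to 3′ over 27 bases, and capitals mark the loop. Single elements were found in the 5′ UTR of *Fth1* (chr19:9982733-9982759, + strand), *Ftl1* (chr7:45459780-45459806, - strand) and *Slc40a1* (chr1:45925466-45925492, - strand). Another 4 lay in the 3′ UTR of *Tfrc* on the + strand, at chr16:32631220-32631246, chr16:32631599-32631625, chr16:32631664-32631690 and chr16:32631711-32631737.
Fth1 5′ UTR: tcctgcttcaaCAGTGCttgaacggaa
Ftl1 5′ UTR: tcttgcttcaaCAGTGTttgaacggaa
Slc40a1 5′ UTR: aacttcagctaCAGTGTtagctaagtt
Tfrc 3′ UTR, element 1: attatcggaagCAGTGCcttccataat
Tfrc 3′ UTR, element 2: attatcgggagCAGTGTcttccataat
Tfrc 3′ UTR, element 3: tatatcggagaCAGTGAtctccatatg
Tfrc 3′ UTR, element 4: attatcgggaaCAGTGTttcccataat
The same pattern was present in the 5′ UTR of 8 of 20883 genes (0.0383%) and in the 3′ UTR of 24 of 21011 genes (0.114%). The other 6 members held no match to these letters in either UTR. Elements of another form were not searched for, so the lack of a match does not show that a gene has no element.

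**Figure D1:**
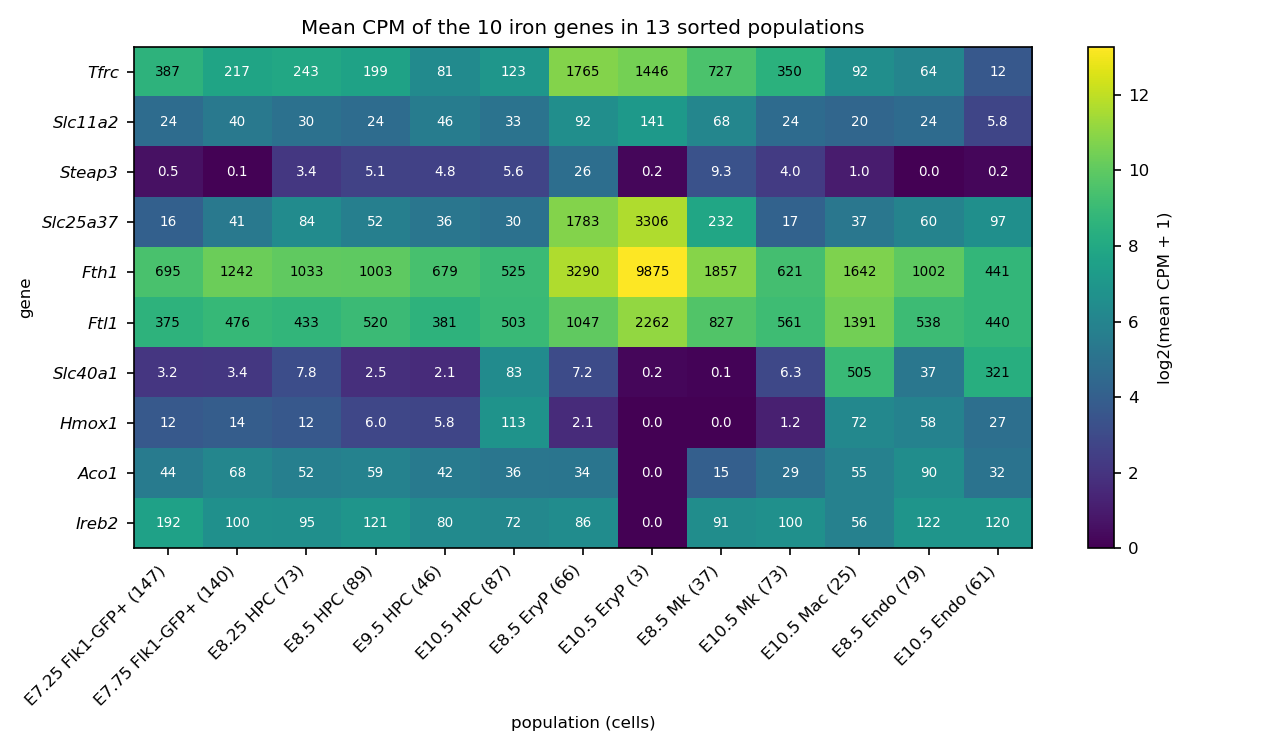
Mean CPM of the 10 iron genes (rows, by role) in the 13 sorted populations (columns, cells in brackets), with colour on a log2(mean CPM + 1) scale and the mean printed in each field. *Tfrc*, *Slc25a37* and *Fth1* were highest in the EryP columns, and *Slc40a1* was highest in the Mac column.

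Among the 12 populations of 25 or more cells, the uptake genes were highest in E8.5 EryP. *Tfrc* had a mean of 1765 CPM there, and its lowest, median and highest cell had 30.8, 1469 and 5943 CPM. It was found in 66 of 66 EryP cells (interval 94.6 to 100%). E8.5 Mk followed with 727 CPM, and E7.25 *Flk1*-GFP+ cells and E10.5 Mk came next with 387 and 349.9 CPM. The E10.5 Mk mean was 226.9 CPM without its highest cell, which had 9200.1 CPM. The quartile range of EryP lay above those of all 11 other populations of 25 or more cells. Only 23 of the 857 cells of those populations reached the first quartile of EryP (1072 CPM), 9 of them in E8.5 Mk and 8 at E7.25. The 3 E10.5 EryP cells were spread, with *Tfrc* at 340, 925 and 3073 CPM. Endothelium was at the other end. *Tfrc* had a mean of 63.9 CPM in E8.5 Endo (median 0.60, highest 740 CPM), where 48 of 79 cells held it, and 11.7 CPM in E10.5 Endo, where 9 of 61 cells did (14.8%, interval 6.975 to 26.2%).

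The DMT1 gene *Slc11a2* was also highest in EryP, at a lower level. Its mean in E8.5 EryP was 91.7 CPM (0, 51.8 and 398.7 CPM in the lowest, median and highest cell), and 58 of 66 cells held it. E8.5 Mk had 68.4 CPM, and the *Flk1*-GFP+ and HPC populations lay between 24.4 and 46.4 CPM. The value of 46.4 CPM, in E9.5 HPC, rested to 55.8% on 1 cell. E10.5 Endo was lowest with 5.81 CPM in 9 of 61 cells. The quartile ranges of EryP and E8.5 Mk overlapped, and only 5 of 66 pairs of populations had separate quartile ranges for *Slc11a2*, 3 of them with EryP.

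The endosomal reductase gene *Steap3* was low outside E8.5 EryP, also in the 3 E10.5 EryP cells, where its mean was 0.16 CPM. It had a mean of 26.3 CPM in E8.5 EryP, with 49 of 66 cells holding it (74.2%, interval 62.0 to 84.2%), although the median cell had only 5.36 CPM and the highest 171.7 CPM. Its mean was 9.29 CPM in E8.5 Mk and between 3.39 and 5.65 CPM in the 4 HPC populations, where 9 of 46 to 37 of 87 cells held it. In E8.5 Endo 1 of 79 cells held it, with 4 counts (Poisson interval 1.09 to 10.2). In the 10 E8.5 Mk cells with under 10000 CPM of summed erythroid markers no cell held *Steap3*, and 17 of the other 27 did.

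**Figure D2:**
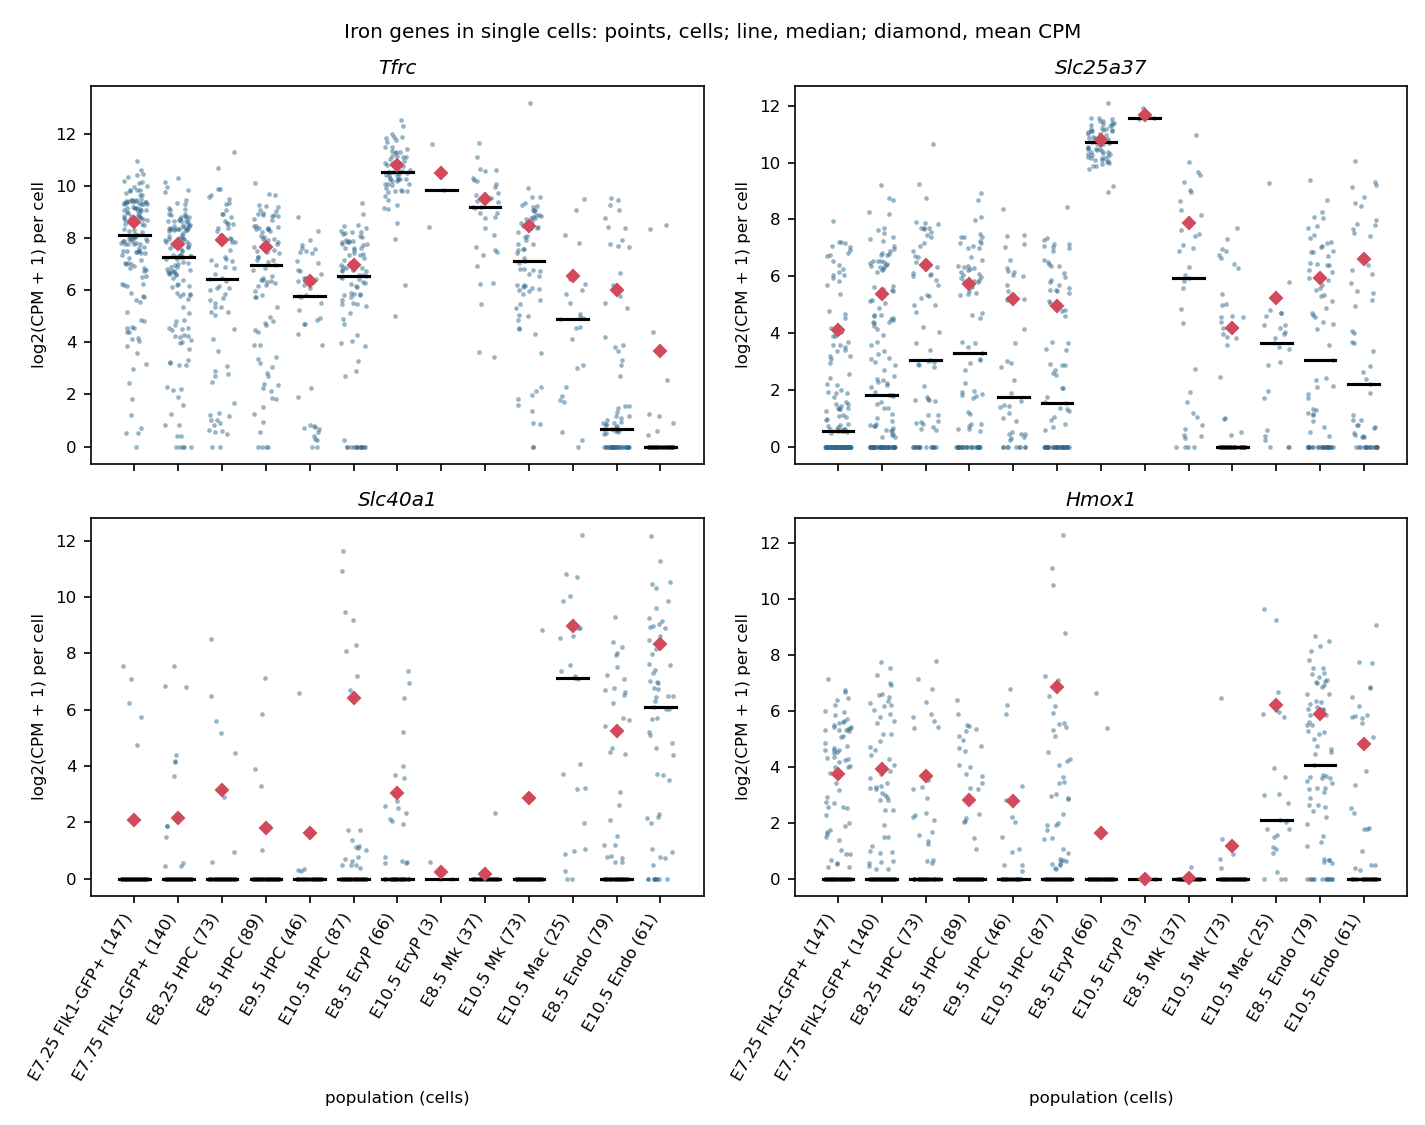
Log2(CPM + 1) of *Tfrc*, *Slc25a37*, *Slc40a1* and *Hmox1* in every filtered cell (points) of the 13 populations, with the median (line) and the mean CPM (diamond). *Slc25a37* was at 502 CPM or more in every E8.5 EryP cell, whereas the *Slc40a1* and *Hmox1* means in E10.5 HPC lay far above medians of 0.

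The mitochondrial importer gene *Slc25a37* showed the largest gap of the 10 genes between E8.5 EryP and the next population of 25 or more cells. Its mean was 1782.5 CPM in E8.5 EryP, and its lowest, median and highest cell had 502, 1681.5 and 4375 CPM. E8.5 Mk, the next, had a mean of 232 CPM and a median of 60.6 CPM. Of the 857 cells of the other 11 populations, 16 (1.87%) reached the lowest EryP cell, 7 of them in E8.5 Mk and 4 in E10.5 Endo. The remaining populations had means between 16.05 CPM (E7.25) and 96.8 CPM (E10.5 Endo), and their quartile ranges overlapped with one another, apart from that of EryP. In the 3 E10.5 EryP cells *Slc25a37* was at 2990, 3018 and 3910 CPM, all above the EryP mean at E8.5.

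Ferritin was found in nearly every cell of every population, so it differed by level and not by presence. The heavy chain gene *Fth1* had a mean of 3289.5 CPM in E8.5 EryP (1294, 3368 and 5003 CPM in the lowest, median and highest cell). E8.5 Mk had 1857 CPM and Mac 1642 CPM, and the lowest population was E10.5 Endo with 440.5 CPM. The quartile range of EryP was again separate from all 11 others. The Mac cells were uneven, with *Fth1* at 67.2, 1049 and 9213 CPM in their lowest, median and highest cell. In the 3 E10.5 EryP cells *Fth1* was at 8942, 9264 and 11421 CPM, above all 66 EryP cells of E8.5.

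The light chain gene *Ftl1* had another order. Among the populations of 25 or more cells Mac was highest with 1391 CPM (20.0, 1283 and 4959 CPM in the lowest, median and highest cell), followed by E8.5 EryP with 1047 CPM (612, 1031 and 1665 CPM) and E8.5 Mk with 826.5 CPM. The other 9 populations of 25 or more cells had means between 375 CPM at E7.25 and 561 CPM in E10.5 Mk. In the 3 E10.5 EryP cells *Ftl1* was at 1672, 2451 and 2664 CPM on the deposited scale, all above the 66 EryP cells of E8.5. As plain CPM of the total counts of a cell, these 3 cells ranged from 1128 to 1683 CPM. The 66 cells reached 1261 CPM on that scale, so the separation did not hold there. Length cancels when the CPM of *Fth1* is divided by that of *Ftl1* and compared across populations. This quotient of means was 3.14 in E8.5 EryP, 2.61 at E7.75 and 2.25 in E8.5 Mk, but 1.18 in Mac, 1.11 in E10.5 Mk, 1.04 in E10.5 HPC and 1.00 in E10.5 Endo. The quotient was thus higher in EryP than in Mac, also in the median cell, where it was 3.15 against 1.21.

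Annotated pseudogenes of the ferritin genes took part of the reads. RefSeq pseudogenes named for a ferritin gene, or with at least 50 runs of 31 bases shared with its transcripts, numbered 2 for *Fth1* (*Fth-ps2*, *Gm6977*) and 4 for *Ftl1* (*Gm10116*, which RefSeq names *Ftl1-ps1*, *Ftl2-ps*, *Gm12164* and *Gm15590*). They held between 2.28 and 7.05% of the joint reads for *Fth1*, and between 48.4 and 53.95% for *Ftl1*. *Gm10116* alone held 43.2 to 48.2% of the reads of itself and *Ftl1* in each population, and its level followed that of *Ftl1* from cell to cell (Spearman's rho 0.90 to 0.98 in the 12 populations of 25 or more cells). Whether the counting divided reads of *Ftl1* among these copies was not tested. With all copies summed, *Ftl1* had a mean of 2645 CPM in Mac and 2102 CPM in E8.5 EryP, and all 28 ratios of *Fth1* and *Ftl1* kept their side of 2-fold.

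The exporter gene *Slc40a1* was highest in Mac and E10.5 endothelium. Its mean was 505 CPM in Mac, where 23 of 25 cells held it (92.0%, interval 74.0 to 99.02%). The Mac cells ranged from 0 to 4672 CPM with a first quartile of 2.89 CPM, and 37.0% of the summed level came from 1 cell, without which the mean was 331 CPM. E10.5 Endo had 321 CPM in 52 of 61 cells (median 67.3, highest 4631 CPM), and its quartile range overlapped with that of Mac. Of 898 cells in the other 11 populations, 41 reached the median Mac cell, 21 of them in E10.5 Endo and 7 each in E10.5 HPC and E8.5 Endo. Of the 7 macrophage markers, 6 (*Csf1r* among them) had no count in E10.5 Endo, and *Mrc1*, which endothelium also expresses, had 2035 CPM. E8.5 Endo had 37.0 CPM in 30 of 79 cells. In EryP *Slc40a1* had a mean of 7.21 CPM and was found in 19 of 66 cells (28.8%, interval 18.3 to 41.25%), and in E8.5 Mk it was found in 1 of 37 cells. E10.5 HPC had a mean of 83.5 CPM but a median of 0, with 22 of 87 cells holding the gene and 43.75% of the summed level in 1 cell. The 16 E10.5 HPC cells with 1000 CPM or more of summed macrophage markers, a limit chosen after the data were seen, held 98.4% of this level, and the other 71 had a mean of 1.65 CPM.

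Haem oxygenase 1 was uneven between cells. *Hmox1* had its highest mean in E10.5 HPC (113.3 CPM), but the median cell there had 0 and 1 cell with 4929 CPM made up 50.0% of the sum. Without the 16 cells rich in macrophage markers, which held 95.1% of it, the mean was 6.795 CPM. It was most widely found in Mac (22 of 25 cells, 88.0%, interval 68.8 to 97.45%) and E8.5 Endo (66 of 79 cells, 83.5%, interval 73.5 to 90.9%). The means were 71.8 CPM in Mac (0, 3.27 and 789 CPM in the lowest, median and highest cell) and 57.9 CPM in E8.5 Endo (0, 15.7 and 407 CPM). Erythroid and megakaryocyte cells hardly held it: 2 of 66 E8.5 EryP cells, 1 of 37 E8.5 Mk cells with a single count, and 5 of 73 E10.5 Mk cells. Of 37 E8.5 Mk cells, the deepest population at a median of 3536330 counts, only that cell had a read of *Hmox1*.

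The sensor genes separated the populations least. *Aco1*, which encodes a protein that is either cytosolic aconitase or iron regulatory protein 1, had means between 15.4 CPM in E8.5 Mk and 90.0 CPM in E8.5 Endo, and no pair among the 12 populations had separate quartile ranges. *Ireb2* had means between 55.8 CPM in Mac and 191.9 CPM at E7.25, and 2 of 66 pairs were separate. In E8.5 EryP *Aco1* had a median of 0.54 CPM and was found in 35 of 66 cells, and *Ireb2* had a median of 17.8 CPM and was found in 57 of 66 cells. In the 3 E10.5 EryP cells no count of *Aco1*, *Ireb2* or *Hmox1* was found (0 of 3 cells, interval 0 to 70.8%).

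Genes were set against each other only per kb of exonic length in GENCODE M21. On that scale of mean CPM per kb, E8.5 EryP had 948 for *Fth1*, 781 for *Ftl1*, 296 for *Slc25a37* and 285 for *Tfrc*, and 14.4 or less for the other 6 genes. Mac had 1038 for *Ftl1* and 473 for *Fth1*, followed by 56.1 for *Slc40a1*, 41.0 for *Hmox1* and 14.8 for *Tfrc*. The length joins all exons annotated for a gene, 3469 bases for *Fth1* and 1340 for *Ftl1*. It may exceed the length of the mRNA present, and reads on pseudogenes are left out. The order of *Fth1* and *Ftl1* in Mac depends on this length, as their mean CPM were 1642 and 1391. By these means the receptor and the mitochondrial importer ranked next after ferritin in EryP. In Mac the exporter and haem oxygenase did so, far below ferritin. The Mac ranks rest on few cells: 1 cell held 43.9% of the summed *Hmox1* and 1 cell 37.0% of the summed *Slc40a1*. The median Mac cell had 3.27 CPM of *Hmox1*.

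E8.5 EryP were then set against the 3 other populations of their stage and flow cell. A gene was tested where either mean was 10 CPM or more, and called at a 2-fold ratio of mean CPM + 1, a scale that understates the change of low genes. Against E8.5 HPC, 6 of 8 members tested were higher and 0 lower, where 8.6% of 8962 genes were higher and 18.1% lower. Against E8.5 Mk, 4 of 8 were higher and 0 lower (8.54% and 14% of 8651 genes). Against E8.5 Endo, 5 of 10 were higher and 3 lower (18.6% and 27.5% of 9540 genes). The median log2 ratio of the members was 1.79, 0.96 and 1.34 in these comparisons, against 0.05 over all genes tested in each.

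*Slc25a37*, *Tfrc* and *Steap3* were called higher in all 3 comparisons, *Slc11a2* and *Fth1* over HPC and Endo, *Ftl1* over HPC and *Aco1* over Mk. *Slc25a37* had log2 ratios of 5.08 over HPC, 2.94 over Mk and 4.88 over Endo. *Tfrc* had log2 ratios of 3.14, 1.28 and 4.77, and *Steap3* of 2.16, 1.41 and 4.75. The 3 genes were higher than in each of the 3 populations, 3 of the 8 members tested in all 3 against 3.71% of 8165 genes. *Steap3* was low, with means of 26.3 CPM in EryP and 9.29 CPM in Mk and medians of 5.36 and 0 CPM. Its call over Mk was lost with a pseudocount of 10. *Slc11a2* had log2 ratios of 1.87 over HPC and 1.91 over Endo but 0.42 over Mk, and *Fth1* of 1.71, 0.82 and 1.71. *Ftl1* was at the threshold, with log2 ratios of 1.01 over HPC, 0.34 over Mk and 0.96 over Endo. *Hmox1*, *Slc40a1* and *Aco1* were lower than in Endo, with log2 ratios of -4.24, -2.21 and -1.37. By medians over cells *Aco1* (0.54 against 19.3 CPM) and *Ireb2* (17.8 against 77.8 CPM) were also under HPC. *Aco1* was 2.15-fold higher than in Mk, a ratio that turned to a log2 value of -0.25 over all captured cells.

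**Figure D3:**
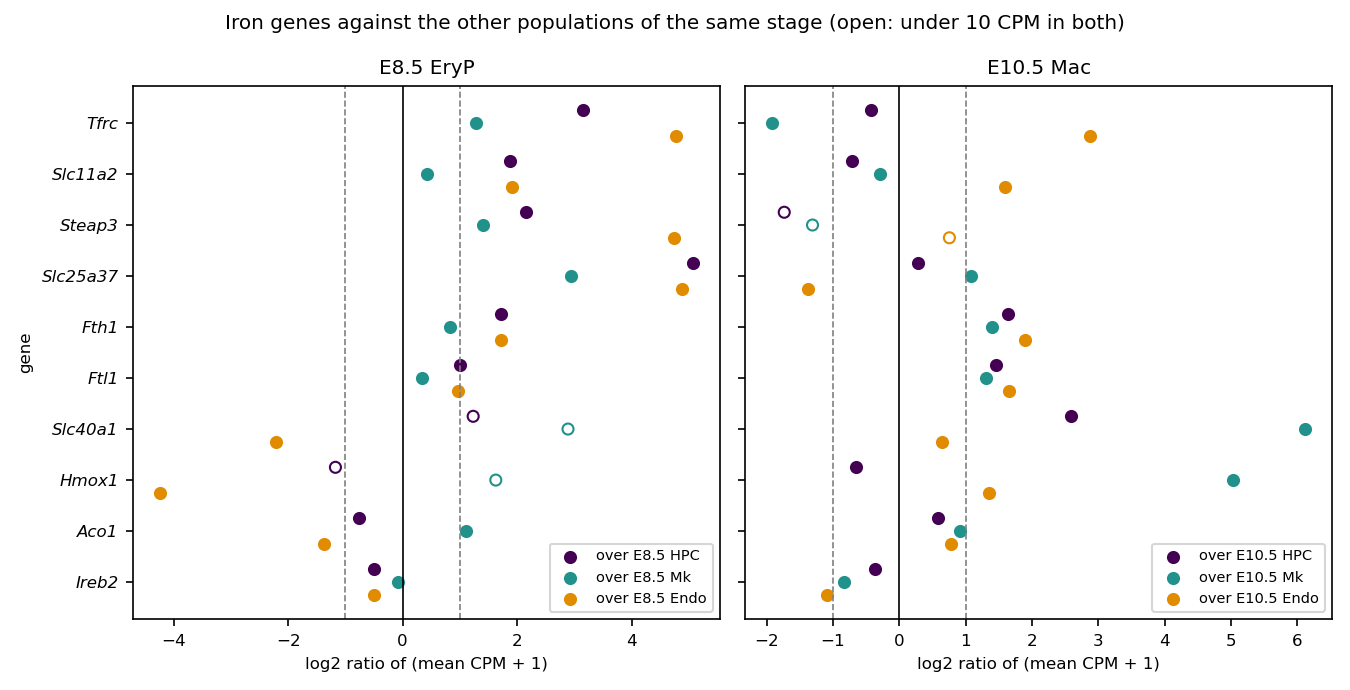
Log2 ratio of mean CPM + 1 (x axis) of each iron gene (y axis) in E8.5 EryP (left) and E10.5 Mac (right) over the 3 other populations of the same stage, with dashed lines at 2-fold and open points where both means were under 10 CPM. *Slc25a37*, *Tfrc* and *Steap3* lie past 2-fold over all 3 populations in EryP, and *Fth1* and *Ftl1* do in Mac.

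The comparison of EryP with E8.5 Mk was repeated without the 27 E8.5 Mk cells that had 10000 CPM or more of summed erythroid markers, a limit chosen after the data were seen. In the remaining 10 cells the mean of *Slc25a37* was 19.4 CPM (310.8 CPM in the 27), that of *Fth1* was 1233 CPM (2087.5 CPM) and that of *Tfrc* was 416 CPM (842 CPM). Over these 10 cells all 4 calls kept their direction. *Fth1* passed 2-fold as well, with a log2 ratio of 1.41 against 0.82 over all 37 cells. Leaving out cells by erythroid markers lowers the Mk mean of genes that follow those markers. The kept and gained calls are therefore no support for a difference. From cell to cell within E8.5 Mk, Spearman's rho with the mean log2 level of the erythroid markers was 0.77 for *Slc25a37*, 0.77 for *Fth1*, 0.52 for *Ftl1*, 0.45 for *Steap3* and 0.44 for *Tfrc* (37 cells of 1 lane). The rho of these genes with the total count of a cell lay between -0.30 and 0.0026 there. In EryP the rho with the same markers was 0.68 for *Fth1*, 0.54 for *Ftl1* and 0.44 for *Slc25a37*, but 0.10 for *Tfrc* (66 cells). In E8.25 HPC it was 0.62 for *Steap3* and 0.49 for *Tfrc* (73 cells), and in E8.5 HPC, from the same gate, 0.42 and 0.12 (89 cells). For *Fth1* it was 0.43 and 0.50 in these populations. In the *Flk1*-GFP+ cells no member was over 0.32.

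**Figure D4:**
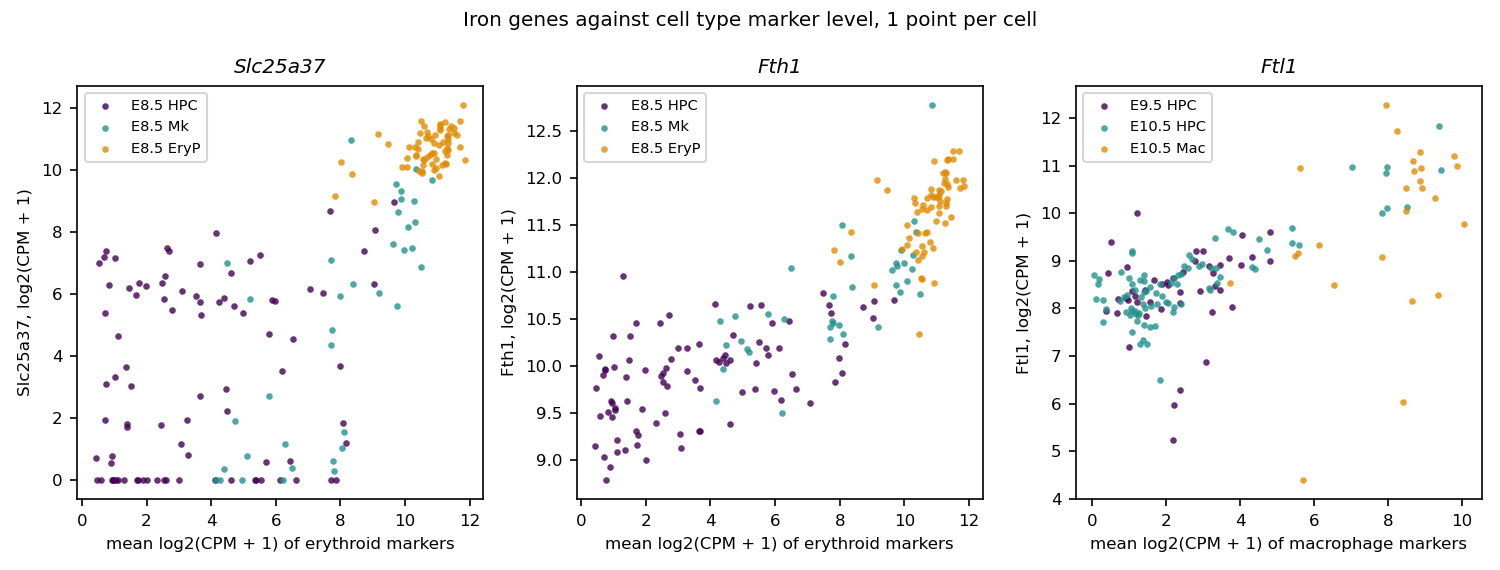
Log2(CPM + 1) of *Slc25a37* and *Fth1* against the mean log2(CPM + 1) of 7 erythroid markers in E8.5 HPC, Mk and EryP cells, and of *Ftl1* against that of 7 macrophage markers in E9.5 HPC, E10.5 HPC and E10.5 Mac cells, 1 point per cell. E8.5 Mk cells rich in erythroid markers lie next to EryP for *Fth1* (rho 0.77 within Mk), and E10.5 HPC cells rich in macrophage markers lie among the Mac cells for *Ftl1* (rho 0.65 within E10.5 HPC).

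Mac were set against the 3 other E10.5 populations in the same way. Against E10.5 HPC, 3 of 9 members tested were higher and 0 lower (22.4% and 24.4% of 9300 genes). Against E10.5 Mk, 5 of 9 were higher and 1 lower (24.2% and 28.9% of 9544 genes), and against E10.5 Endo, 5 of 9 were higher and 2 lower (24.1% and 35.1% of 10294 genes). The background was high here, and only 25 of 41 captured Mac cells had passed the filter. The median log2 ratio of the members was 0.28, 1.08 and 1.36, against -0.14, -0.17 and -0.29 over all genes tested.

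*Fth1* and *Ftl1* were higher in Mac than in each of the 3 populations, 2 of the 9 members tested in all 3 where 14% of 8628 genes were. Their log2 ratios were 1.64 and 1.46 over HPC, 1.40 and 1.31 over Mk, and 1.90 and 1.66 over Endo. The quartile range of *Fth1* in Mac overlapped with those of all 3 populations, and that of *Ftl1* with those of Mk and Endo. By medians over cells the log2 ratio of *Fth1* over Mk was 0.64. *Slc40a1* had log2 ratios of 2.58 over HPC and 6.12 over Mk, but 0.65 over Endo. *Hmox1* had log2 ratios of 5.03 over Mk and 1.36 over Endo, and -0.65 over HPC, where 1 cell held 50.0% of the sum. Without the 16 HPC cells rich in macrophage markers the latter turned to 3.22. *Tfrc* was 3.78-fold lower than in Mk and 7.31-fold higher than in Endo. Its median in Mac, 28.6 CPM, was under that of HPC, 92.6 CPM, while the log2 ratio of means was -0.42. The sensor genes showed the same gap by medians, 0.24 against 13.0 CPM for *Aco1* and 19.3 against 55.9 CPM for *Ireb2*.

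Part of the other Mac calls rested on single cells. *Slc25a37* was 2.11-fold higher in Mac than in Mk, but 67.2% of its summed level in Mac came from 1 cell, and without the highest cell of each population the log2 ratio was -0.17. Against Endo its log2 ratio was -1.37 by means and 1.46 by medians. *Ireb2* likewise had a log2 ratio of -1.09 over Endo by means and 0.76 by medians. Without the 16 E10.5 HPC cells rich in macrophage markers, the 3 calls of Mac over HPC (*Fth1*, *Ftl1* and *Slc40a1*) kept their direction, and *Hmox1* joined them. These 16 cells held 98.4% of the summed *Slc40a1* in HPC, 95.1% of *Hmox1*, 43.6% of *Ftl1* and 32.7% of *Fth1*. Leaving them out raises the ratios through the choice of cells, so the result is no support for these calls. Within E10.5 HPC, rho with the macrophage markers was 0.65 for *Ftl1* and 0.42 for *Hmox1* (87 cells), and within E9.5 HPC it was 0.58 for *Hmox1* (46 cells).

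Levels were also followed over stages within a sorted lineage. Between E8.25 and E8.5 HPC, which were on 1 flow cell, 0 of 8 members tested were past 2-fold in either direction (2.86% of 8879 genes were higher and 3.82% lower). Between E9.5 and E10.5 HPC, on the other flow cell, 2 of 9 were higher (5.86% of 9050 genes) and 0 lower (8.73%). These were *Slc40a1*, from 2.06 to 83.5 CPM, and *Hmox1*, from 5.77 to 113.3 CPM, both with medians of 0 at each stage. Without the 16 cells rich in macrophage markers, the log2 ratio of *Slc40a1* was -0.21 and that of *Hmox1* was 0.20. The other stage comparisons crossed flow cells, so stage and flow cell cannot be told apart in them. After E8.5 the HPC gate also changed, from CDH5+ CD41+ to CDH5- CD45+ with low CD41. The Mk gate changed from CD41+ to CD45- with high CD41. In HPC and Mk the sorted phenotype thus cannot be told apart from stage either. From E8.5 to E9.5 HPC, *Tfrc* went from 198.9 to 81.0 CPM, the only member called of 7 tested (11.5% of 9250 genes higher and 13.1% lower). From E8.5 to E10.5 HPC, *Slc40a1* and *Hmox1* were again the only members higher of 9 tested, and 0 were lower (9.02% and 12% of 9184 genes). Without the same 16 cells both calls were lost, with log2 ratios of -0.40 for *Slc40a1* and 0.15 for *Hmox1*, and *Fth1* was past 2-fold lower at -1.21 (-0.93 with them).

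From E8.5 to E10.5 Mk, 4 of 7 members tested were lower and 0 higher (12.7% and 16.3% of 8983 genes). *Slc25a37* went from 232 to 17.0 CPM (log2 ratio -3.70), *Fth1* from 1857 to 621 CPM (-1.58), *Slc11a2* from 68.4 to 24.1 CPM (-1.47) and *Tfrc* from 727 to 349.9 CPM (-1.05). Without the 27 E8.5 Mk cells rich in erythroid markers the log2 ratios were -0.18 for *Slc25a37*, -0.99 for *Fth1* and -0.25 for *Tfrc*, so these 3 calls were lost. *Slc11a2* stayed past 2-fold lower at -1.80, and *Aco1*, which had 0.73 CPM in the 10 cells and 28.6 CPM in E10.5 Mk, was past 2-fold higher. From E8.5 to E10.5 Endo, 5 of 9 members tested were lower and 1 higher (16.4% and 21.2% of 9938 genes). Here *Tfrc* went from 63.9 to 11.7 CPM, *Slc11a2* from 23.7 to 5.81 CPM, *Aco1* from 90.0 to 31.7 CPM, *Fth1* from 1002 to 440.5 CPM and *Hmox1* from 57.9 to 27.4 CPM. *Slc40a1* went the other way, from 37.0 to 321 CPM, and the share of cells with it went from 38.0% (interval 27.3 to 49.6%) to 85.2% (73.8 to 93.0%). At 840000 counts per cell these shares were 32.9% and 78.9%.

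Between E8.5 EryP and the 3 E10.5 EryP cells, 2 of 8 members tested were higher and 3 lower, where 16% of 8084 genes were higher and 51.3% lower. The higher members were *Fth1* (log2 ratio 1.59) and *Ftl1* (1.11), and the median over all genes tested was -1.11. As plain CPM of the total of a cell in the same kept cells, *Ftl1* had means of 1401 CPM at E10.5 and 881 CPM at E8.5, under 2-fold. *Fth1* stayed past 2-fold on that scale, with 6239 against 2759 CPM. The lower ones were *Steap3*, with 1 count in 1 of the 3 cells, *Aco1* and *Ireb2*. Only 3 of 25 captured cells passed the filter here. Over all captured cells, as plain CPM of the total of a cell, the log2 ratios of *Fth1* and *Ftl1* were -0.58 and -1.26. From E7.25 to E7.75, 1 of 8 members tested was higher and 0 lower (4.92% and 5.46% of 8888 genes). This was *Slc25a37*, from 16.0 to 40.9 CPM. The 2 lanes of E7.25 cells differed in *Slc25a37* by a log2 ratio of 1.18, nearly as much as the stages, and 6.52% of 8684 genes were past 2-fold between them. Between the 2 lanes of E7.75 cells no tested member was past 0.77 (8.63% of 8937 genes past 2-fold).

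Of a wider list of 56 genes of iron and haem handling, 40 were in the filtered tables. In E8.5 EryP 22 of them could be tested against all 3 populations, 5 were higher than in each and 1 lower (3.71% and 6.8% of 8165 genes). Among the higher ones were *Abcb10*, a mitochondrial transporter that steadies mitoferrin-1 (295.8 CPM against 21.5, 73.2 and 19.2 CPM in HPC, Mk and Endo), *Glrx5* (an iron-sulphur cluster protein, 89.7 CPM, at the threshold over Mk with a log2 ratio of 1.01), *Abcg2* (an exporter of haem and porphyrins, 625.7 CPM) and *Blvrb* (biliverdin reductase B, 685 CPM). The lower one was *Hif1a*, a hypoxia factor, with 44.5 CPM. The second transferrin receptor gene *Tfr2* had 9.34 CPM in EryP and 0.48 CPM or less in the other E8.5 populations, under the level tested.

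In Mac 26 of the 40 were tested, 5 were higher than in each of the 3 populations and 2 lower (14% and 10.3% of 8628 genes). The higher ones were *Trf* (transferrin, 139.9 CPM against 5.97 CPM or less), *Slc39a14* (a metal importer, 59.3 CPM), *Lrp1* (a scavenger receptor for haem bound to haemopexin, 47.2 CPM), *Pcbp1* (an iron chaperone of ferritin, 942 CPM) and *Hif1a* (357 CPM). *Abcb10* (2.58 CPM) and *Abcg2* (30.0 CPM) were lower. *Hif1a*, *Abcb10* and *Abcg2* thus went one way in EryP and the other way in Mac, each against its own stage.

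Genes with the most similar pattern were found by Pearson's r of log2(mean CPM + 1) over the 12 populations of 25 or more cells, among 4785 genes that reached 100 CPM in at least 1 of them. For *Slc25a37* they were *Alad* (r = 0.95), the second enzyme of haem synthesis, *Add2* (0.94) and *Ermap* (0.92), both of the red cell membrane. For *Steap3* they included *Plagl2* (0.92) and *Rhag* (0.91), and for *Tfrc* *Ldha-ps2* (0.96), *Cited2* (0.93) and *Asns* (0.93). For *Slc40a1* they were *Rnase4* (0.93), *Hfe* (0.91), an iron sensor of macrophages and liver, and *Ncstn* (0.91). The genes nearest to *Hmox1* were *Cdc42se2* (0.90), *Cdk1* (0.84) and *Rgl1* (0.84), and those nearest to *Slc11a2* were *Las1l* and the pseudogenes *Gm9625* and *Gm8730* (0.93 each). These are descriptions over 12 points that share lanes and flow cells.

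Pairs of members were also compared from cell to cell. *Fth1* and *Ftl1* had rho between 0.18 (E10.5 Endo) and 0.61 (E8.5 HPC) in the 12 populations, and 0.51 in EryP. *Tfrc* and *Slc25a37* had rho between 0.09 (E10.5 Mk) and 0.41 (E8.5 Mk), and 0.26 in EryP. *Hmox1* and *Slc40a1* were found in the same cell in 21 of 25 Mac, 24 of 79 E8.5 Endo, 21 of 61 E10.5 Endo and 13 of 87 E10.5 HPC cells, but in 2 of 66 EryP cells and in no cell of either Mk population. *Aco1* and *Ireb2*, the 2 sensors, had rho between -0.25 and 0.24.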

How the data were processed

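Single-cell RNA-seq of sorted yolk sac cells was used as deposited. The read counts were made by the authors with Rsubread and featureCounts on Ensembl release 84 (GRCm38), and the CPM, a size factor signal, by the authors with scran after a scater filter. Within a cell the deposited CPM are the counts times 1 factor, so their sums range from 699615 to 4176737. No column was left unmapped. Total counts per cell had a median of 1887347.5. Means of CPM gave levels, and log2 ratios of mean CPM + 1 were called at 2-fold where a mean reached 10 CPM. The scripts were tested on simulated data. Members, lists and markers were chosen with earlier results of these data known. Named are all members, genes of the wider list past 2-fold against each of 3 populations (up to 12), the 3 genes most like each member whose population means span over 8-fold, and ferritin pseudogenes; *Tfr2* was named after its values were seen, and some genes that the rule names are not reported here. Gene models, lengths and UTRs came from GENCODE M21, and pseudogene names from RefSeq (GRCm38.p6). Thinning drew 840000 counts per cell and left out 46 shallower cells. Alternatives were another scaling, pseudocount, average, cell filter and fold. Computation used scipy 1.17.1 and pandas 2.3.3 on Python 3.11.15 with numpy 2.4.6, and plots used matplotlib 3.10.9.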

Additional observations from a re-analysis of the deposited data

Results flagged for a closer look

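*Fth1* had log2 ratios of opposite sign between E8.5 and E10.5 in different lineages, 1.59 in EryP against -1.58 in Mk and -1.18 in Endo. The EryP value rests on 3 cells at E10.5 and turned to -0.58 over all captured cells, the same sign as in Mk and Endo, and the Mk value was -0.99 without the E8.5 Mk cells rich in erythroid markers. *Hmox1* had log2 ratios of 4.02 in HPC and -1.05 in Endo. Without the 16 E10.5 HPC cells rich in macrophage markers the HPC value was 0.15. With 1 sample per population the difference between lineages was not tested, and all 5 ratios cross flow cells. The ratios of HPC and Mk also cross a change of gate.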

How the results depend on the processing

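Of 55 member ratios past 2-fold over all same-stage and stage comparisons, 52 kept their direction and stayed past it with plain CPM of the total, 47 with a pseudocount of 10, 42 by medians, 46 by means of log2(CPM + 1), 48 over all captured cells and 53 without the highest cell of each population, the last chosen after seeing the data. Counts of members called moved as follows. At 4-fold, the members higher in EryP were 3 against HPC, 1 against Mk and 3 against Endo, those higher in Mac were 1 against HPC, 2 against Mk and 1 against Endo, and those lower in Mac were 0 against Mk and 0 against Endo. By medians, members lower in EryP were 2 against HPC and 1 against Mk, members lower in Mac were 3 against HPC and 0 against Endo, and 3 were higher in Mac than in Mk. By means of log2 values the counts were 2 lower in EryP than in HPC, 3 lower in Mac than in HPC, 0 lower in Mac than in Endo and 3 higher in Mac than in Mk. Over all captured cells 2 were lower in EryP than in HPC, 2 lower in Mac than in HPC and 1 lower in Mac than in Endo. With a pseudocount of 10, 2 were higher in EryP than in Mk (*Steap3* and *Aco1* were lost) and 1 lower in Mac than in Endo. Without the highest cells 2 were lower in Mac than in HPC.

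Ratios that reversed were those of *Slc25a37* in Mac over Mk (-0.17 without the highest cells) and over Endo (1.46 by medians), *Ireb2* in Mac over Endo (0.76 by medians and 0.78 by log2 means), *Aco1* in EryP over Mk (-0.25 over all captured cells), *Fth1* and *Ftl1* in EryP over stages (-0.58 and -1.26 over all captured cells), and *Slc40a1* in E10.5 HPC over E9.5 (-0.21) and over E8.5 HPC (-0.40) without the cells rich in macrophage markers. Without these cells *Hmox1* in Mac over HPC, under 2-fold at -0.65, also turned, to 3.22. The cause was not tested. At 4-fold the share of all genes called was 1.99 to 21.1%, and with no filter on low values 7.265 to 31.1%. Thinning moved 10 of 130 shares out of their interval, and a minimum of 10 counts moved 72. No paired analysis was possible because the numbers in the labels name cells and not pairs, and no test was made. Depth per cell limits statements on *Steap3*, *Hmox1* and *Slc40a1*, whose zeros in a cell do not show absence.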

Other observations

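The 22 E10.5 EryP cells that did not pass the filter still held iron genes. Their total counts ranged from 27656 to 3606368. *Slc25a37*, *Fth1* and *Ftl1* were found in 22 of 22 of these cells (interval 84.6 to 100%) and *Tfrc* in 20 of 22, but *Ireb2* in 1 of 22 and *Steap3* in 0 of 22 (interval 0 to 15.4%). In plain CPM of the total of a cell, *Slc25a37* had a median of 99.9 and a range of 3.51 to 8305, and *Fth1* a median of 93.4 and a range of 10.95 to 4722.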
